A study of Mus musculus with 6 samples.

Results

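The genes described here encode matricellular proteins of the mouse pancreas, namely the thrombospondins Thbs1 and Thbs2, osteopontin (Spp1), fibronectin (Fn1), SPARC (Sparc), periostin (Postn) and versican (Vcan). They were chosen by name from a list of 8 such genes, by a rule that does not use their values. The choice was made with earlier results of these data known. The deposited table has entries for 7 of the 8 among 10245 genes, and tenascin C (Tnc) was not analysed here. Whole pancreata of 3 control mice, labelled Ptf1a(CreER/+), and 3 Ptf1a cKO mice, labelled Ptf1a(CreER/fl), had been sequenced as RNA, and each group held 1 male and 2 females. All 6 mice had received 3 daily doses of tamoxifen by gavage at 0.25 mg/g and were killed on day 14, counted from the first dose. In both genotypes 1 Ptf1a allele carries the tamoxifen-inducible Cre in place of a working gene, so the control mice are heterozygous, and the study's methods also give both an EYFP reporter of recombination at the R26R locus. Because Cre is driven from the Ptf1a locus, deletion is limited to adult acinar cells that express it and need not reach all of them. Control mice were 4 months old and Ptf1a cKO mice 5 months, so age and genotype cannot be told apart. Every value is a level of RNA, not of protein, in whole tissue, in which fewer cells of a type and less RNA per cell cannot be told apart.

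Matricellular proteins are secreted into the extracellular matrix, where they bind cells, growth factors and structural fibers and tune adhesion and signaling more than they bear load. They are typically scarce in resting adult tissue and are made during wound repair, fibrosis and around tumors. In the pancreas, osteopontin is best known as a product of duct cells and of macrophages, whereas fibronectin, SPARC, periostin, versican and thrombospondin 2 are typical products of fibroblasts and activated stellate cells. Thrombospondin 1, which can be made by many cell types, activates latent TGF-beta and restrains the growth of blood vessels.

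All 7 genes were higher in Ptf1a cKO pancreata, but by very different amounts. By the ratio of group means, Thbs1 was 38.1 times and Spp1 43.1 times control, and the other 5 were between 2.01 and 3.27 times. In limma's moderated test over all genes with Benjamini-Hochberg adjustment, 7 of 7 were called higher at an adjusted p under 0.05, where 17.1% of the 10245 genes were called higher, 16.8% lower and 33.9% in either direction. For 6 of the 7 the lowest Ptf1a cKO library lay above the highest control library, which was so for 26.5% of all genes, and Fn1 was the exception. A log2 fold change of at least 1 with a call was reached by 6 of 7, all but Thbs2, against 6.35% of all genes. The table holds normalized read counts, which the authors had put on a common scale. The limma p-values rest on the spread between mice within groups of 3, with each gene's variance moderated toward a trend over all genes.

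**Figure D1:**
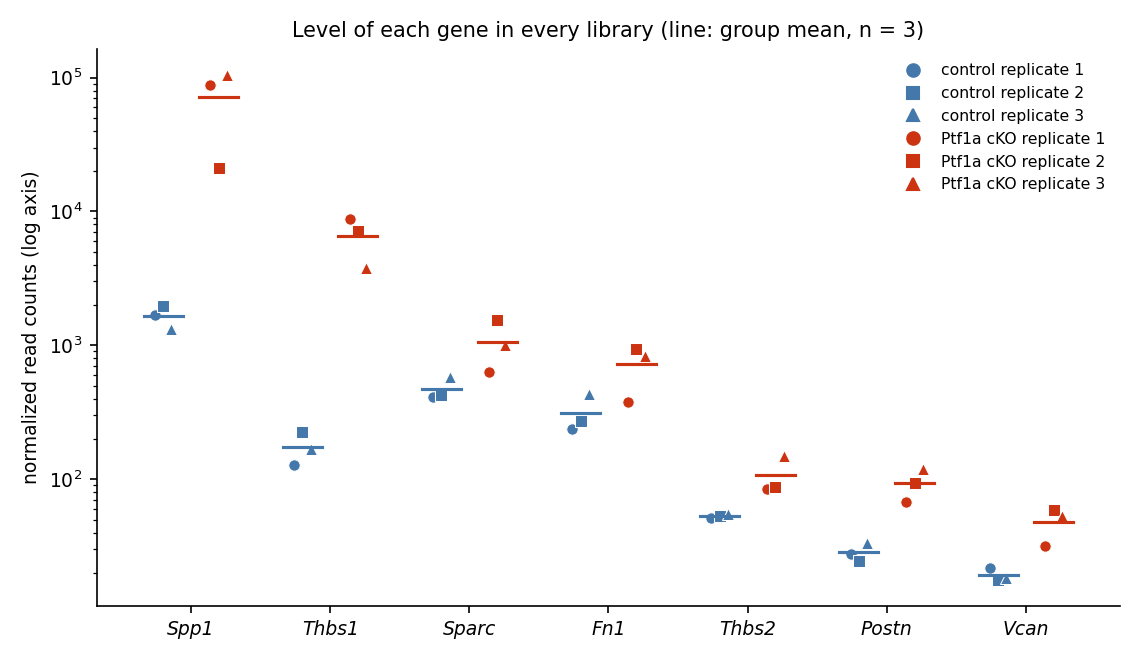
Normalized read counts (log axis) of the 7 genes in each of the 3 control (blue) and 3 Ptf1a cKO (red) libraries, with a line at each group's mean. Spp1 and Thbs1 move by more than an order of magnitude, and the groups overlap only for Fn1, where Ptf1a cKO replicate 1 (379) lies below control replicate 3 (430).

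The targeted gene followed the labels. Ptf1a, a basic helix-loop-helix factor that maintains the acinar program, was at 566, 601 and 652 normalized counts in the control libraries and at 19.8, 70.1 and 10.2 in the Ptf1a cKO libraries. The digestive enzymes took 83.7% to 86.2% of the normalized counts in control and 39.6% to 66.2% in Ptf1a cKO libraries, with Ptf1a cKO replicate 2 at the top of that range. That library therefore kept the most Ptf1a and the largest share of enzymes of its group. Ptf1a cKO replicate 3 stood apart in another way, with Ptprc, the pan-leukocyte gene, at 419 normalized counts against at most 86.6 in any other library. Sequencing depth cannot be read from these values.

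Osteopontin, an acidic phosphoprotein that binds alpha-v integrins and CD44, was the most abundant of the 7 in both groups. Spp1 was at 1677, 1959 and 1327 normalized counts in control and at 87512, 20971 and 105340 in Ptf1a cKO libraries. Even the lowest Ptf1a cKO library, replicate 2, was 10.7 times the highest control library. The log2 fold change was 5.14 ± 0.52 (SE, n = 3 and 3, limma, adjusted p = 2.27e-04), the eighth largest of all genes in the table. The 3 Ptf1a cKO libraries differed by a factor of 5.02, the widest spread of the 7 genes, against 1.48 among the controls. Without Ptf1a cKO replicate 2 the log2 fold change was 5.87. Spp1 alone made up 1.22%, 0.233% and 1.91% of all normalized counts in the Ptf1a cKO libraries, compared with 0.00739% to 0.00931% in control. The library totals were themselves lower in Ptf1a cKO, at 7156436, 8981107 and 5527104 normalized counts against 17949889 to 21175836 in control. The shares therefore rise by more than the counts do.

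PTF1A pairs with other basic helix-loop-helix proteins on the letters CANNTG, the E-box, and joins RBPJ or RBPJL on TGGGAA. The 250 bases before the first of 2 RefSeq starts of Spp1 are shown because this is the gene with the highest level, and those before the start of Sparc because it stands for the genes that moved less. Both are from GRCm38.p6, whereas the authors' files use mm9, and capitals mark each match to either motif on either strand. The Spp1 window is chr5:104434861-104435110 on the plus strand and the Sparc window chr11:55420081-55420330 on the minus strand.
Spp1: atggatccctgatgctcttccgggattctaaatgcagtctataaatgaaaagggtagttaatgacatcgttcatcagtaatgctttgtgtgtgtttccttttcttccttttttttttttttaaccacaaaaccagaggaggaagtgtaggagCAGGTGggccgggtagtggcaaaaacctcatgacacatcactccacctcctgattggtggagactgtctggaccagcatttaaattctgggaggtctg
Sparc: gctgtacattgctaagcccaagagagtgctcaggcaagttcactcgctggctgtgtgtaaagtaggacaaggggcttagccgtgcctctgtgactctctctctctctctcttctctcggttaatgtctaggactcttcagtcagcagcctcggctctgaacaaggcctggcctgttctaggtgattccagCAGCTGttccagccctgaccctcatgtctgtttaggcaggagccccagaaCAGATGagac
The Spp1 window holds 1 E-box and the Sparc window 2, and neither holds TGGGAA or its complement TTCCCA. In all, 7 windows were examined for 5 of the genes: 2 each for Postn and Spp1, and 1 each for Sparc, Thbs2 and Vcan. No window of Thbs1 or Fn1 was examined. Of the 7, 5 held an E-box and 1, that of Vcan, held TGGGAA. Over all 32851 windows of the same length, 66.2% held an E-box, 21.6% held TGGGAA and 14.8% held both. The 7 windows are too few to set these genes apart from that background or to place them near it. A match is a run of letters and says nothing of binding, which these data did not measure.

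Thrombospondin 1, a trimeric glycoprotein that binds CD36 and CD47, went from among the middle ranks to near the top. Thbs1 was at 127, 225 and 167 normalized counts in control and at 8755, 7183 and 3804 in Ptf1a cKO libraries. The groups were far apart, with the lowest Ptf1a cKO library, replicate 3, at 16.9 times the highest control. The log2 fold change was 5.18 ± 0.30 (SE, n = 3 and 3, limma, adjusted p = 1.85e-05), the seventh largest of all genes, just ahead of Spp1. By group mean the gene moved from percentile 61.0 of all genes in control to percentile 99.5 in Ptf1a cKO. Thbs1 and Spp1 did not rank the Ptf1a cKO libraries alike: replicate 3 was lowest for Thbs1 and highest for Spp1.

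Thrombospondin 2, a close relative that also restrains vessel growth and helps order collagen fibers, changed far less. Thbs2 was at 51.0, 53.5 and 55.4 normalized counts in control and at 85.2, 87.5 and 148 in Ptf1a cKO libraries. The controls were tight, with a coefficient of variation of 4.09%, and all Ptf1a cKO libraries lay above them. The log2 fold change was 0.91 ± 0.21 (SE, limma, adjusted p = 0.00976). Within each library, the log2 ratio of Thbs1 to Thbs2 was 1.26, 2.00 and 1.53 in control and 6.63, 6.31 and 4.65 in Ptf1a cKO. A library's scale cancels in such a ratio except for the pseudocount. That difference of 4.26 between paralogs therefore moved by at most 0.05 under 4 other scalings of the libraries, which were added after the data were seen. With each library left out in turn the difference ran from 3.88 to 4.87. An exact permutation test gave p = 0.10, two-sided, the smallest that 3 against 3 can give, and 0.19 after adjustment over the 21 pairs of the 7 genes. Thrombospondin 3 (Thbs3), a pentameric member of the family, went from 31.2 ± 2.52 to 71.6 ± 17.9 normalized counts (SD, n = 3), a log2 fold change of 1.09 ± 0.22 (SE, limma, adjusted p = 0.00513).

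Fibronectin and SPARC, the adhesive scaffold of provisional matrix and a collagen-binding counter-adhesive protein, went together. Fn1 was at 238, 270 and 430 normalized counts in control and at 379, 947 and 838 in Ptf1a cKO libraries. Its groups overlapped. The log2 fold change was 1.14 ± 0.34 (SE, limma, adjusted p = 0.0286), while an exact permutation test of the normalized counts gave p = 0.20. Sparc was at 414, 423 and 584 in control and at 635, 1541 and 999.9 normalized counts in Ptf1a cKO libraries. Its groups were apart by a small margin, with the lowest Ptf1a cKO library 1.09 times the highest control, and its log2 fold change was 1.08 ± 0.28 (SE, limma, adjusted p = 0.0178). Both genes were highest in Ptf1a cKO replicate 2 and lowest of their group in replicate 1, unlike Spp1, which was lowest in replicate 2. Both calls depended on single libraries: the adjusted p of Fn1 was 0.106 without control replicate 1, 0.0897 without control replicate 2, and 0.0584 or 0.0884 when replicate 2 or 3 of Ptf1a cKO was left out, and that of Sparc was 0.0698 and 0.0643 without control replicates 1 and 2.

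Periostin and versican had the lowest normalized counts, not corrected for length, and both were called in every fit that left out a library. Periostin, a fasciclin-domain protein that supports the cross-linking of collagen and is a known product of activated stellate cells, had the largest change of the less responsive 5. Postn was at 27.8, 24.6 and 33.6 normalized counts in control and at 67.8, 93.7 and 120 in Ptf1a cKO libraries. The lowest Ptf1a cKO library was 2.02 times the highest control, and the log2 fold change was 1.57 ± 0.23 (SE, limma, adjusted p = 0.00109). Versican is a large chondroitin sulfate proteoglycan that binds hyaluronan. Vcan was at 21.9, 17.6 and 18.4 in control and at 31.9, 59.3 and 53.0 normalized counts in Ptf1a cKO libraries. Its groups were apart as well, with a log2 fold change of 1.14 ± 0.28 (SE, limma, adjusted p = 0.0127).

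**Figure D2:**
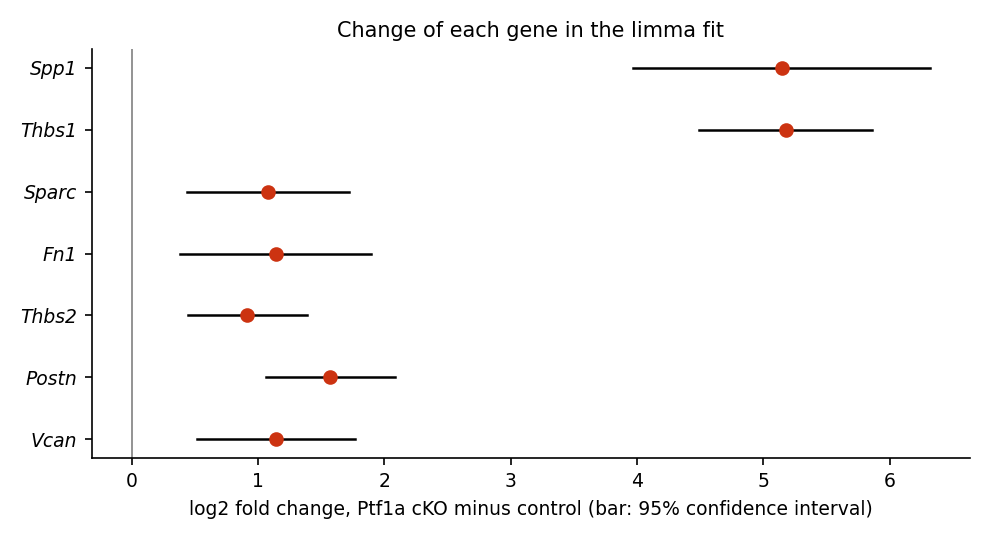
Log2 fold change of each gene, Ptf1a cKO minus control, from the limma fit, with bars for the 95% confidence interval. The intervals of Spp1 (3.97 to 6.32) and Thbs1 (4.49 to 5.86) lie clear of those of the other 5 genes, which reach at most 2.08, for Postn.

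Read against exon length, the order of the genes shifted between the genotypes. In control, normalized counts per kb of exon were 1004 ± 192 for Spp1 (SD, n = 3), 174 ± 35.2 for Sparc, 36.9 ± 12.1 for Fn1 and 29.6 ± 8.45 for Thbs1. Thbs2 (9.04 ± 0.37), Postn (8.72 ± 1.40) and Vcan (1.44 ± 0.17) followed on the same scale. In this order Fn1 and Thbs1 overlapped, as did Thbs2 and Postn, and the other neighbors were apart in all libraries. In Ptf1a cKO pancreata Spp1 was at 43249 ± 26982 per kb, and Thbs1, at 1125 ± 433, had moved from the fourth place to the second. Sparc (389 ± 168), Fn1 (85.1 ± 35.6), Postn (28.5 ± 7.92), Thbs2 (18.1 ± 6.05) and Vcan (3.58 ± 1.07) came after it. Only Postn and Thbs2 still overlapped as neighbors.

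Ratios within a library show the split of the 7 genes library by library. Their mean differences follow from the log2 fold changes above, so they are not a further result. Because of the pseudocount the ratios still depend slightly on scaling, by at most 0.15 on the log2 scale over the 21 pairs. Of the 21 pairs, 11 had Ptf1a cKO libraries all on one side of the controls, each at an exact permutation p of 0.10 and an adjusted p of 0.19, so none passed a threshold of 0.05. Of these, 10 were the pairs of Thbs1 or Spp1 with one of the other 5 genes, whose log2 ratios differed between genotypes by 3.57 to 4.26 in size. The log2 ratio of Spp1 to Sparc, for example, was 2.01, 2.20 and 1.18 in control and 7.10, 3.76 and 6.71 in Ptf1a cKO. The remaining pair was Thbs2 to Postn, whose log2 ratio was lower in Ptf1a cKO by a difference of -0.66.

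The other 10 pairs overlapped. Fn1 to Sparc was the steadiest, with a log2 ratio of -0.79, -0.64 and -0.44 in control and -0.74, -0.70 and -0.25 in Ptf1a cKO, a mean difference of 0.06 against SDs of 0.18 and 0.27. Sparc to Vcan differed by -0.06 and Fn1 to Vcan by less than 0.01. Thbs1 to Spp1 differed by only 0.03 on average, but its Ptf1a cKO values of -3.32, -1.55 and -4.79 spread far more (SD 1.62) than its control values of -3.69, -3.10 and -2.97 (SD 0.38). With 3 libraries a group, these overlaps do not show that the ratios were equal.

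**Figure D3:**
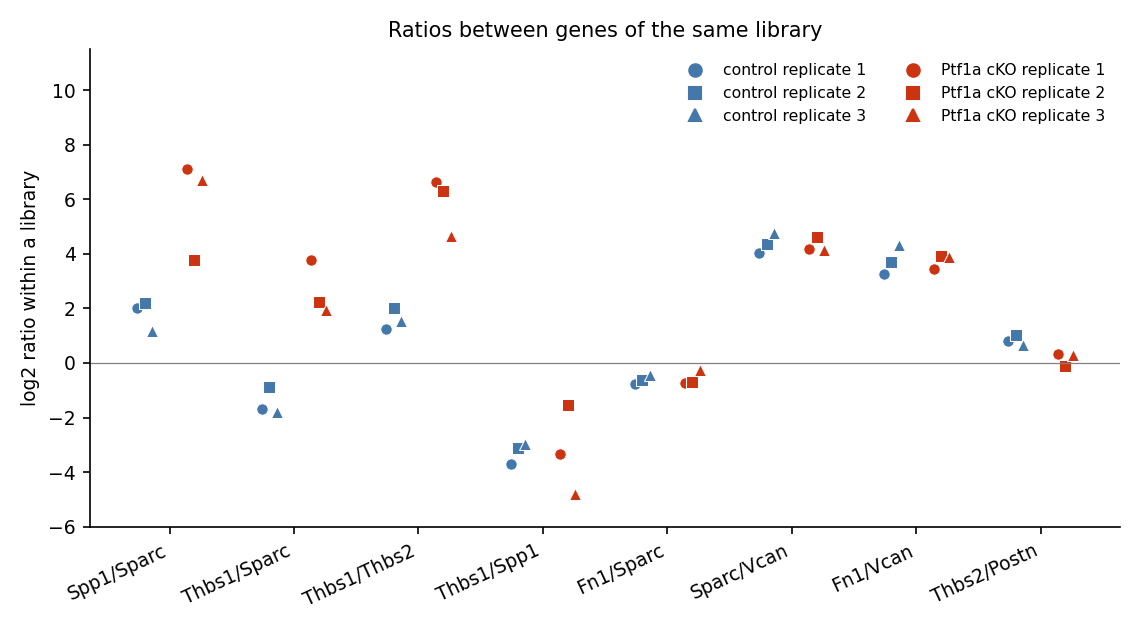
Log2 ratios of 8 pairs of genes within each library, for 3 control (blue) and 3 Ptf1a cKO (red) libraries. Spp1 or Thbs1 against Sparc, and Thbs1 against Thbs2, are higher in all Ptf1a cKO libraries, whereas Fn1, Sparc and Vcan keep overlapping ratios to one another.

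Markers of the cell types that could make these proteins also moved. Beside the counts of this and the following lists stand 17.1% of all genes called higher and 16.8% called lower. Of 10 listed fibroblast and stellate cell markers 9 were measured and 8 were called higher, among them Col1a1, Thy1, Col1a2 and Lum at log2 fold changes of 1.96, 1.79, 1.66 and 1.49. Their summed level was 2800 to 3134 normalized counts in control and 5359, 10017 and 7004 in Ptf1a cKO libraries, with replicate 2 highest as for Fn1 and Sparc. All 8 macrophage markers were called higher (median log2 fold change 1.29), led by Cd14 (1.62), Lyz2 (1.44), Emr1 (1.36) and Ctss (1.30), with sums of 522 to 850 in control and 1331 to 2403 in Ptf1a cKO. Of 9 duct cell markers 8 were measured and 4 were called higher, Sox9 (2.21), Epcam (1.37), Muc1 (0.80) and Krt18 (0.45), while the classical duct keratin Krt19 was at a log2 fold change of -0.01 (limma, adjusted p = 0.97). The duct cell sums were 4316 to 4615 in control and 6872 to 7575 in Ptf1a cKO.

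Set against the summed fibroblast markers of the same library, the genes split again. The log2 ratio to that sum overlapped between genotypes for Fn1 (difference -0.11), Sparc (-0.18), Vcan (0.01), Thbs2 (-0.31) and Postn (0.42). For Sparc it was -2.92, -2.73 and -2.41 in control and -3.08, -2.70 and -2.81 in Ptf1a cKO. This overlap was not particular to fibroblast markers. Against the macrophage sum the same genes overlapped too, with differences from -0.38 for Thbs2 to 0.35 for Postn. Against the duct cell sum all of them but Postn (0.99) overlapped. Against the summed endothelial markers all were apart, with differences from 0.95 for Thbs2 to 1.68 for Postn. For Thbs1 the mean log2 ratio was -4.16 in control and -0.22 in Ptf1a cKO, a difference of 3.94, and for Spp1 it was -0.88 and 3.00, a difference of 3.88, with all libraries apart (exact permutation p = 0.10 each). Against the duct cell sum the differences were 4.51 for Thbs1 and 4.45 for Spp1, and against the macrophage sum they were 3.87 and 3.81, again with the groups apart. Against the sum of the 3 measured adipocyte markers they were 2.54 and 2.49, and there the groups overlapped (exact permutation p = 0.20 and 0.30). The part of cell composition in these changes was not tested. Of 7 endothelial markers 1, Vwf, was called higher (log2 fold change 0.84), a share near the 17.1% of all genes. Of 7 islet markers 0 were called by limma or had an unadjusted p under 0.05. The 5 listed platelet genes were not analysed here.

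**Figure D4:**
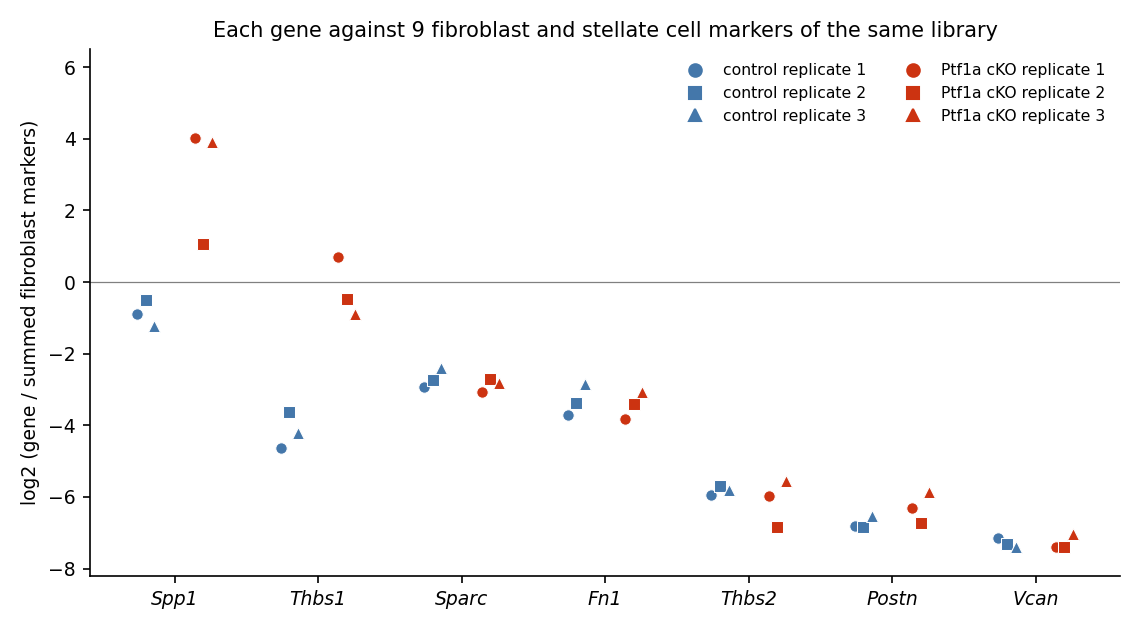
Log2 ratio of each gene to the summed level of 9 fibroblast and stellate cell markers in the same library (blue, control; red, Ptf1a cKO). Ratios of Sparc, Fn1, Thbs2, Postn and Vcan overlap between genotypes, and those of Spp1 and Thbs1 are higher in every Ptf1a cKO library.

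The smaller lists of other cells are given for completeness, beside the 17.1% of all genes called higher and 16.8% called lower. Of the 6 smooth muscle and pericyte markers 4 were measured and Acta2 (1.15) and Myh11 (0.85) were called higher, with sums of 500, 271 and 552 in Ptf1a cKO against 220 to 260 in control. Among 5 mesothelial markers 3 were measured and Lrrn4 was called higher (1.17). Of 5 adipocyte markers 3 were measured and Cfd, which encodes adipsin, was called higher (3.24). Of 18 acinar genes 15 were called lower, with Ptf1a (-4.41), Cela2a (-3.11), Cel (-2.95) and Pnliprp1 (-2.88) in the lead, and limma called 0 higher, also at an unadjusted p under 0.05. Whether any of these cells contributed to the 7 genes was not tested.

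Most measured genes of related families were called higher, by 1.17 on the log2 scale at most. Of 34 listed relatives, 20 were measured, 12 were called higher and 2 lower, and the median log2 fold change was 0.70 beside 0.04 for all genes. Efemp2 (1.17) and Fbln5 (1.13), fibulins needed for elastic fibers, and Lgals3 (1.15), a galectin of activated macrophages, led the rises, and only 7 relatives were called higher without control replicate 2. Vitronectin (Vtn), an adhesive protein that shares integrin receptors with osteopontin, went the other way, from 2757, 3573 and 3367 normalized counts in control to 419, 324 and 199 in Ptf1a cKO. Its log2 fold change of -3.41 ± 0.24 (SE, limma, adjusted p = 4.48e-05) was by far the largest fall of the list. Smoc1 (-0.55), a SPARC relative found in basement membranes, was the other gene called lower, although its log2 fold change was 0.92 when libraries were set to the same total. Its paralog Smoc2 was called higher (0.68).

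The genes for collagens and proteoglycans to which these proteins bind moved on a scale close to that of Sparc and Fn1. Of 22 listed structural matrix genes 19 were measured, 12 were called higher and 0 lower by limma (0 also at an unadjusted p under 0.05), with a median log2 fold change of 0.85. By size, Col1a1, Col1a2, Lum and Col3a1 (1.33) led, and they also belong to the fibroblast markers. The basement membrane genes Col4a1 (0.60), Col4a2 (0.34), Lamc1 (0.30) and Hspg2 (0.26) did not pass the test. Without control replicate 1 or 2 only 7 of the 19 were called higher.

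RNA of the receptors for these proteins was also measured. Of 24 listed receptors and adapters 20 were measured, 9 were called higher and 1 lower, and the median log2 fold change was 0.53. Itgb6 is the epithelial subunit of the integrin that binds fibronectin and activates latent TGF-beta, and it went from 16.2, 18.5 and 13.2 to 65.0, 38.7 and 104 normalized counts (log2 fold change 1.81). Stab1 (1.25), a scavenger receptor that takes up SPARC, Sdc2 (0.95), a syndecan that binds fibronectin, and Cd44 (0.93), which binds osteopontin, were also called higher, Cd44 not without control replicate 2 (limma, adjusted p = 0.0507) or Ptf1a cKO replicate 3 (0.0536). Of the thrombospondin 1 receptors, Cd47 was called higher (0.64) and Cd36, at a log2 fold change of 0.73, was not (limma, adjusted p = 0.083). The common fibronectin receptor chains Itgb1 (-0.00) and Itga5 (0.50) did not pass the test. Vldlr, which binds thrombospondin 1, was the only receptor called lower (-0.87), but stood at 0.62 at the same library total.

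Genes of TGF-beta signaling, which thrombospondin 1 can activate and which in turn drives matrix genes, showed small changes. Of 19 listed genes 15 were measured, 5 were called higher and 1 lower, and the median log2 fold change was 0.32. Over all genes 17.1% were called higher and 16.8% lower. The 5 were Tgif1 (1.04), a repressor of SMAD targets, the receptors Tgfbr2 (0.88) and Tgfbr3 (0.84), the latent binding protein Ltbp4 (0.77) and the ligand Tgfb3 (0.47). Smad3, a mediator of the pathway, was called lower (-0.41), but stood at 1.06 at the same library total, and the call was lost without control replicate 1, 2 or 3 or Ptf1a cKO replicate 1 or 3 (adjusted p from 0.0591 to 0.0957). Tgfb1 was higher in all Ptf1a cKO libraries, at 32.6, 50.0 and 69.8 against 26.2 to 27.8 normalized counts, but missed the threshold (limma, adjusted p = 0.052).

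Among proteases that cut matrix proteins and their inhibitors, 13 of 22 were measured, of which 5 were called higher and 2 lower. The shares over all genes were 17.1% higher and 16.8% lower. Furin, the convertase that matures TGF-beta and many metalloproteases, went from 1039, 1053 and 1043 to 5643, 3502 and 5243 normalized counts, a log2 fold change of 2.16 ± 0.18 (SE, limma, adjusted p = 9.09e-05). Adamts15 (1.80), which cleaves versican, Mmp2 (1.17), Mmp14 (1.12), which activates MMP2, and the lysosomal protease Ctsb (0.90) were the other 4 called higher. Adamts9 (-1.07) and Adamts1 (-0.57), which also cleave versican, were called lower, but stood at 0.37 and 0.85 at the same library total. The call of Adamts1 was also lost without control replicate 1 or 3 or Ptf1a cKO replicate 1 or 3 (limma, adjusted p from 0.0574 to 0.0998). The inhibitors Timp2 (0.19) and Timp3 (0.08) did not pass the test.

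**Figure D5:**
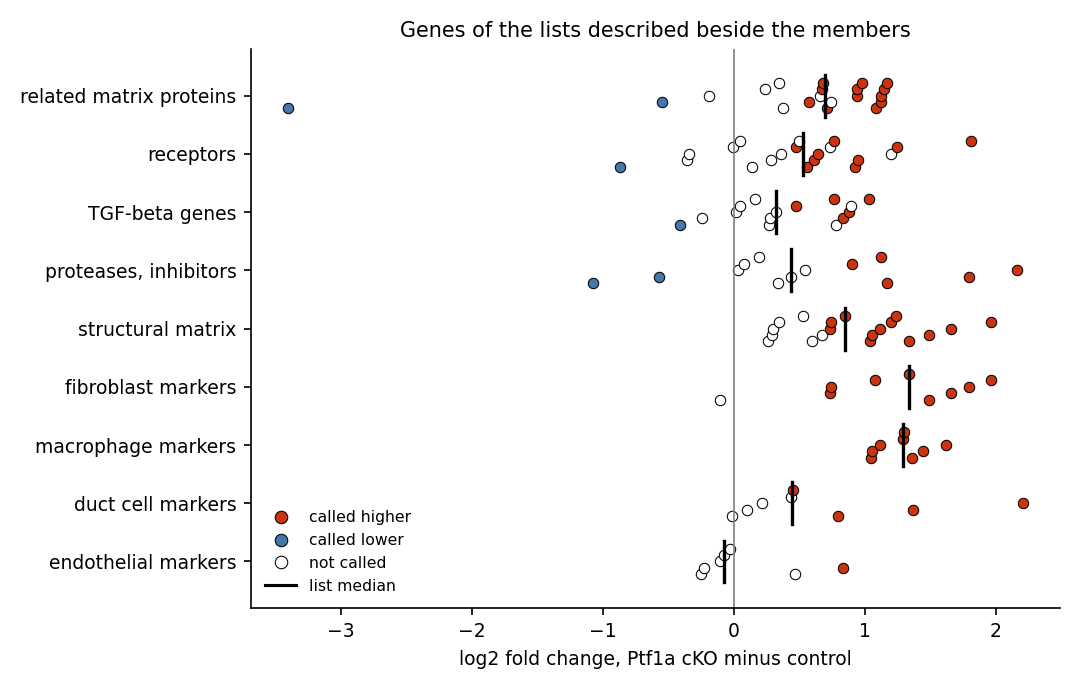
Log2 fold change (Ptf1a cKO minus control) of every measured gene in 9 lists, filled red or blue where limma called it higher or lower and open where it did not, with a bar at each list's median. The medians run from -0.07 for endothelial markers to 1.33 for fibroblast markers, and Vtn lies far to the left at -3.41.

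Across the 6 libraries, the genes whose log2 levels followed each member most closely differed between them. With 6067 or 6068 genes of at least 100 normalized counts compared, Thbs1 was closest to Gif, gastric intrinsic factor (Pearson r = 0.998 over 6 libraries), which went from 502 ± 147 to 34944 ± 14928 normalized counts (SD, n = 3). Srsf3, Lurap1l, Dusp16 and Nfkbiz came next. Spp1 was closest to Arl6ip5 and then to Chia, an acidic chitinase (r = 0.997), which went from 745 ± 290 to 71658 ± 44554 normalized counts, followed by Grik5, Pskh1 and Psme1. The 5 named genes were near-ties, with r from 0.998 to 0.994 for Thbs1 and from 0.998 to 0.996 for Spp1. Which genes come first therefore carries little weight. The 6 points of each r fall into 2 genotypes and share their libraries, so these values describe a pattern and were not tested.

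Genes nearest to Sparc included matrix genes. Its 5 were Tmpo, Nid1 (r = 0.991), Col15a1 (0.989), Fstl1 (0.988), which encodes a SPARC relative, and Tmem43. Vcan was nearest to Plxnb2 and Col1a2 (0.991), then to Creb3l2, Slit3 and Mdc1. Fn1 was nearest to Mast2, Cic, Zfp710, Khdrbs1 and Arhgdia, none of which changed by more than 0.29 on the log2 scale. For Thbs2 the 5 were Akap13, Ugp2, Wdr1, Mkl2 and Xpo1, and for Postn they were Kdm3b, Dnm2, Pea15a, Pwwp2a and Chd3. Among the members themselves, r over the 6 libraries was 0.970 for Fn1 and Sparc, 0.953 for Postn and Vcan and 0.934 for Thbs1 and Spp1, and it was lowest, 0.635, for Spp1 and Fn1.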

How the data were processed

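The authors made RNA libraries with an Illumina kit and sequenced them single-end. The submitters' processing notes name TopHat2 2.0.4, Bowtie 0.12.7.0, SAMtools 0.1.18.0, HTSeq 0.6.0 and mm9, and the study's methods name edgeR with TMM scaling. The deposited values are a signal, normalized read counts on a common scale. Whole reads could not be recovered: at most 25.5% of the values between 2 and 30 in a library were within 0.05 of a multiple of any step. Entries naming no gene (3, holding 75.7% to 82.6%) were left out.

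R 4.3.3 with limma 3.58.1 (trend, no covariate) was run on log2(value/13.6393 + 0.25), a pseudocount of 3.41 normalized counts, with no filter, over 10245 genes. The threshold was a two-sided Benjamini-Hochberg adjusted p under 0.05. Fold changes on this scale understate those of low genes. The fit was tested on simulated data, drawn as independent normal values, a setting that favors limma. It called 61 of 92 genes changed by 1 on the log2 scale and 99 of 108 changed by 2, with 8 false calls. A gene changed by 1 can therefore be missed. Exon lengths came from GENCODE M21 (GRCm38), with no coordinates in the deposited table. Thbs1, Fn1 and Vcan overlap annotated antisense genes and Spp1 a same-strand one, none of them analysed here, and use of strand is not given in the sources used here.

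Genes named were all members, Ptf1a, the 4 largest calls per list, counts of 5 or fewer, and the 5 genes most correlated with each member. Further list genes were named after their values were seen. Members and lists were chosen with earlier results of these data known. Alternatives were other pseudocounts, filters, scalings, variance estimates, a replicate block, sex as covariate, a threshold of 0.01 and leaving out each library. The files hold no unused column of per-sample values. The result of 1 marker list, for leukocytes other than macrophages, is not reported here.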

Additional observations from a re-analysis of the deposited data

How the results depend on the processing

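All 7 genes stayed higher in Ptf1a cKO in all 119 combinations of gene and alternative fit, and 109 of these kept the call. Not all of these could differ from the main fit. The other variance estimates, the replicate block and sex as covariate leave the log2 fold change as it was, so its direction could not change. The filter on low values removed no gene, so that fit repeats the main one. Thbs1, Spp1, Postn, Thbs2 and Vcan kept it in each of 17 alternative fits at the threshold of 0.05. Fn1 lost it with no trend (log2 fold change 1.14, adjusted p = 0.0547), with robust variance estimation (1.14, 0.0795) and when libraries were set to the same total without digestive enzymes (0.96, 0.0625), as did Sparc under that scaling (0.91, 0.0501). That scaling moved the median of all genes by -0.17 and the same total by 1.45 on the log2 scale. Relative to the median gene, Fn1 was at 1.10 in the main fit and at 1.10 and 1.14 under these in turn, and Sparc at 1.04, 1.04 and 1.08. At a threshold of 0.01 the main fit did not call Vcan (limma, adjusted p = 0.0127), Sparc (0.0178) or Fn1 (0.0286).

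With each library left out in turn, log2 fold changes ran from 0.89 to 1.55 for Fn1 and from 0.76 to 1.40 for Sparc, and 5 to 7 members were called. The calls over all genes ran from 2363 to 3601 around 3475. At the same total 9719 genes were called, of which 98.7% were higher, against 50.4% in the main fit, 56.2% at the same 75th percentile, 47.7% by median of ratios and 30.4% at the same total without digestive enzymes. An adjusted p under 0.01 left 1794. At the same total, genes called higher numbered 19 of the relatives, 20 of the receptors, 15 of the TGF-beta genes, 12 of the proteases, 19 of the structural matrix genes and 8 of the duct cell markers, and without digestive enzymes 7 of the relatives. At the same total the log2 fold change turned positive for Smoc1 (0.92), Vldlr (0.62), Smad3 (1.06), Adamts1 (0.85) and Adamts9 (0.37), whereas Vtn stayed lower (-1.92). With 1 library left out, the relatives called higher ran from 7 to 13 and the structural matrix genes from 7 to 16. The 21 ratios between members were rerun over other pseudocounts, other scalings (added after the data were seen) and each library left out. Of these, 0 moved by more than the larger SD of its groups, but that count was largely fixed in advance. In groups this small, leaving out 1 library cannot shift a group's mean by as much as that group's SD. Scale nearly cancels in a ratio, so scalings moved the ratios by at most 0.15 on the log2 scale. The count is therefore no evidence that the ratios were stable. Thbs1 to Spp1 ran from -0.80 to 0.82 against a control SD of 0.38. The ratio of Thbs2 to the fibroblast sum ran from -0.59 to 0.05 against a control SD of 0.12.

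Replicate numbers were not shown to pair mice. Same-numbered libraries had correlations of 0.04, 0.13 and 0.14 between their deviations. Differently numbered libraries ran from -0.20 to 0.08, so 0.13 and 0.14 were the highest values. Correlations this small do not settle whether the numbers pair mice. With the replicate number as a block, 3525 genes were called, and all 7 members, Fn1 at an adjusted p of 0.00439. The filter on low values removed 0 genes. The scaled values do not carry sequencing depth, so no counting error is given and precision rests on 3 libraries a group.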
